A study of Mus musculus with 12 samples.

Results

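The 10 genes described here were chosen by symbol as liver carboxylesterases: *Ces1b*, *Ces1c*, *Ces1d*, *Ces1e*, *Ces1f*, *Ces1g*, *Ces2a*, *Ces2e*, *Ces3a* and *Ces3b*, 10 of 17007 genes in the deposited values. *Ces3a* led to the choice because it was among the largest rises in tumors given MLN0128 over tumors given vehicle. The values of that contrast are therefore given as a description without a test. *Ces3a* was tested only between the other 2 groups, everolimus tumors and normal liver. The spread in that test was pooled over all 4 groups, so it also held the vehicle and MLN0128 tumors. Carboxylesterases are serine hydrolases of the hepatocyte, most of them held in the lumen of the endoplasmic reticulum, where they cleave esters of fatty acids and many ester and amide drugs. The mouse genome carries them as tandem families. Members of the Ces1 and Ces3 families hydrolyze triacylglycerol and cholesteryl ester in liver, and Ces1d in particular mobilizes stored fat for the assembly of very low density lipoprotein (VLDL).

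RNA was sequenced from 12 mice in 4 groups of 3. Normal livers came from wild-type C57BL/6 mice. The tumors were c-MYC/MCL1/RictorKO Tsc2KO hepatocellular carcinomas (HCCs) of Rictor fl/fl Tsc2 fl/fl mice, whose livers received plasmids for c-MYC, MCL1 and Cre recombinase by hydrodynamic tail vein injection (the 2 oncogenes under the EF1α promoter, Cre under CMV), so that only the hepatocytes that took up DNA were altered. All 9 tumor-bearing mice carried the same genotype, and from 6 days after injection they were gavaged with the vehicle alone, MLN0128 (an inhibitor of the mTOR kinase in both of its complexes) or everolimus (a rapamycin analog that acts on mTORC1), each drug at 1 mg/kg per day for 3 weeks by the labels. The normal livers differed from the tumors in genotype, injection and gavage together, and both sexes were used in the study.

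The authors' FPKM (fragments per kilobase of gene length, scaled to library size) are a level per length and can be compared between genes. Whole reads recovered from them came to 17167632 to 25186689 per library. The labelled tissue was checked by markers: the summed FPKM of the 9 listed hepatocyte markers ran from 87460 to 106700 in normal liver, 5776 to 8081 in vehicle tumors, 3128 to 6593 in MLN0128 tumors and 4624 to 10280 in everolimus tumors, and none of the 9 was at 0 in any library. *Alb* was the largest part of this sum in normal liver, with a mean of 66600 FPKM. It averaged 1524 FPKM in vehicle, 823 in MLN0128 and 2344 in everolimus tumors, with 4860 in everolimus replicate 2. *Cps1* averaged 709 FPKM in normal liver, 301 in vehicle, 293 in MLN0128 and 360 in everolimus tumors. Ranges of the other marker sums, in the order normal liver, vehicle, MLN0128 and everolimus, were as follows. They were 143 to 184, 71.4 to 112, 42.8 to 92.0 and 47.5 to 105 FPKM for 6 macrophage genes. For 6 endothelial genes they were 49.8 to 59.7, 12.9 to 19.0, 10.2 to 14.0 and 10.7 to 18.5 FPKM. For 6 stellate cell and fibroblast genes they were 59.0 to 82.0, 25.1 to 57.2, 30.8 to 63.6 and 48.2 to 57.1 FPKM, and for 6 biliary genes 40.6 to 44.0, 45.4 to 99.0, 10.7 to 29.6 and 17.7 to 64.3 FPKM. The 5 listed lymphocyte genes summed to at most 2.91 FPKM in any library, with *Cd3d* or *Ms4a1* at 0 in some tumors. The sums cover members that went opposite ways. From normal liver to vehicle tumors mean *Col1a1* rose from 0.839 to 13.9 FPKM while *Dcn* fell from 50.6 to 4.05. *Cd68* rose from 5.18 to 29.9 FPKM while *Clec4f* fell from 81.0 to 7.18. By limma's treat test 2 of 6 stellate cell and fibroblast genes were called higher there and 2 lower. Of 6 macrophage genes 1 was called each way. Of all 14397 tested genes 2282 were called higher and 2428 lower. The biliary sum was thus lower in MLN0128 tumors than in vehicle tumors without overlap. By treat 4 of 5 tested biliary genes were called higher and 0 lower in vehicle tumors than in normal liver. In everolimus tumors 1 of 5 was called lower than with vehicle by treat (0.570% of tested genes were). By limma's moderated test 4 of 5 were (6.05%). In the same order of groups *Krt19* averaged 0.400, 27.7, 0.493 and 0.509 FPKM. *Spp1*, the largest part of the sum in normal liver, averaged 40.2, 27.3, 15.5 and 30.8 FPKM. The part of these cells in the results was not tested. MLN0128 replicates 1 and 2 stood apart from the other 10 libraries: they held *Xist* at 191 and 155 FPKM and all 4 Y-linked markers at 0, while *Xist* was at most 0.0699 FPKM elsewhere.

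By the GENCODE M21 annotation of GRCm38, all 10 genes lie on chromosome 8 in 2 blocks. The 6 *Ces1* genes follow each other in alphabetical order on the minus strand from 93056728 (the end of *Ces1b*) to 93337308 (the start of *Ces1g*). *Ces2a* (104734003 to 104741634), *Ces2e* (104926260 to 104934672), *Ces3a* (105048601 to 105058413) and *Ces3b* (105083753 to 105093929) lie on the plus strand. Global alignment of the coding sequences gave 95.3% identity for *Ces3a* and *Ces3b*, 88.8% for *Ces1b* and *Ces1c* and 83.2% for *Ces2a* and *Ces2e*, and at most 81.6% for any other pair. Of the stretches of 50 bases in the annotated transcript, 30.9% in *Ces3a* and 26.1% in *Ces3b* also occurred in another gene, mostly in each other, against 22.2% in *Ces2a* (shared mostly with the gene model *Gm7208*), 17.0% in *Ces1c*, 11.6% in *Ces1b* and 1.28% to 3.36% in the other 5. How the authors' counting treated such reads is not given in the sources used here, so the levels of *Ces3a* and *Ces3b* in particular are uncertain in how they are split between the pair.

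The 250 bases before the RefSeq start are shown for the pairs whose members differed or kept together in the tumors, and for *Ces3b*, which had the lowest level of all in the tumors. The RefSeq promoter table (GRCm38.p6) held 8 windows of 7 of the 10 genes. *Ces1d*, *Ces1f* and *Ces3a* had no entry. In the 4 sequences that follow, capitals mark the longest run shared with the other member of the pair. It measured 58 bases in *Ces1b* (chr8:93079941-93080190, minus strand) and *Ces1c* (chr8:93131284-93131533, minus strand), and only 17 bases in *Ces2a* (chr8:104733753-104734002, plus strand) and *Ces2e* (chr8:104926010-104926259, plus strand).
Ces1b: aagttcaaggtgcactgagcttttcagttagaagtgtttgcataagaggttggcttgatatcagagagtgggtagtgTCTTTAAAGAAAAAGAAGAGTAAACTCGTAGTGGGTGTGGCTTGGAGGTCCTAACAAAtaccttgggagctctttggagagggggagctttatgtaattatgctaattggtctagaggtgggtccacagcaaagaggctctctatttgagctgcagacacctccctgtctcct
Ces1c: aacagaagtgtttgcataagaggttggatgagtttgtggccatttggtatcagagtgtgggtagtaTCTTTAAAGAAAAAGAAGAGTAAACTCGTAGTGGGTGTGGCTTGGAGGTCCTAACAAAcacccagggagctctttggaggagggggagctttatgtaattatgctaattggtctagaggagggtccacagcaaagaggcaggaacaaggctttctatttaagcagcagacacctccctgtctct
Ces2a: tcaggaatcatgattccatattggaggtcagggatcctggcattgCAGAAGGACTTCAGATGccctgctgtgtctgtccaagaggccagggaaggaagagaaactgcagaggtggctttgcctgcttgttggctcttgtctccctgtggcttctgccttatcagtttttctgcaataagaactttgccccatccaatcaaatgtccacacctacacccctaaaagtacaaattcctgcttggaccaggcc
Ces2e: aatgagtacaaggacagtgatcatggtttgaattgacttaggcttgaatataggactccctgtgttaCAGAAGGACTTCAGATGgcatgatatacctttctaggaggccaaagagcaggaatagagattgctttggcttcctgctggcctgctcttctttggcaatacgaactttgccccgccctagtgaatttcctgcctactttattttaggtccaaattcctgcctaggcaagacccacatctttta
Over these 250 bases *Ces1b* and *Ces1c* were 76.2% identical and *Ces2a* and *Ces2e* 53.2%. In *Ces3b* (chr8:105083505-105083754, plus strand) capitals mark the TATA box motif TATAAA starting 30 bases before the start.
Ces3b: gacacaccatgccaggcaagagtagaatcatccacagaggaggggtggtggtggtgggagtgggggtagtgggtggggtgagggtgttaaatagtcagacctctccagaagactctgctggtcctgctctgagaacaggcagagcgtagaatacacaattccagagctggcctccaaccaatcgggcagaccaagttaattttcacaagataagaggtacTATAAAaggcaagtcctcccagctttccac
Searched on both strands over the whole windows of 300 bases, TATAAA occurred in 2 of 8 windows (*Ces1g*, *Ces3b*) and in 13.6% of the 32851 promoters of the table. AGGTCA, the repeat bound by nuclear receptors, occurred in 1 of 8 (*Ces2a*, 226 bases before the start) and in 16.3% of all. CACGTG (E-box, 7.15% of all promoters), TTGCGCAA (a C/EBP motif, 0.183%) and TGACNNNGC (core of the antioxidant response element, 12.4%) were in none of the 8 windows.

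In normal liver the carboxylesterases were abundant and tightly set. *Ces1c*, whose product is secreted into the plasma, led with 1483 ± 166 FPKM (SD, n = 3 here and in every group), followed by *Ces3a* at 1150 ± 43.6 and *Ces1d* at 695 ± 152, and each of these lay above the next without overlap. *Ces2a* (378 ± 33.3), *Ces3b* (372 ± 33.1) and *Ces1f* (346 ± 29.3) came next, with overlap from *Ces2a* to *Ces3b* and from *Ces3b* to *Ces1f*. *Ces1e*, which encodes egasyn, the anchor of beta-glucuronidase in the endoplasmic reticulum, was at 176 ± 7.55 FPKM. *Ces1g* (139 ± 25.5) and *Ces2e* (131 ± 11.2) overlapped, and *Ces1b* was lowest at 72.8 ± 12.8. Within normal liver the highest library exceeded the lowest by 1.07 times for *Ces3a* and by at most 1.48 times for any member (*Ces1d*).

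The vehicle-treated tumors held a small fraction of this RNA. *Ces3a* had 1170, 1180 and 1100 FPKM in the normal livers and only 0.977, 0.0361 and 3.33 in the vehicle-treated tumors, where 55, 2 and 204 reads stood behind the values. The tumors therefore differed 92.2-fold among themselves, yet the highest of them lay far under the lowest normal liver. *Ces3b* went from 396, 334 and 385 FPKM to 0.0182, 0.0370 and 0.0837, on 1, 2 and 5 reads. The mean of normal liver was 8027 times that of vehicle for *Ces3b* (95% interval 4074 to 18590 from an exact Poisson count of 8 reads, counting error only) and 794 times for *Ces3a* (704 to 900). Vehicle replicate 3 carried much of both vehicle means: without it the ratios were 13470 for *Ces3b* and 2270 for *Ces3a*, outside the counting interval of *Ces3a*. Without it the ratio was also 692.7 for *Ces1f* and 41.9 for *Ces1g*, in place of the values given for them next. In bulk tissue, fewer cells of a type and less RNA per cell cannot be told apart. By limma's treat test 8 of the 9 hepatocyte markers were called lower in the same tumors, where 16.9% of all tested genes were.

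**Figure D1:**
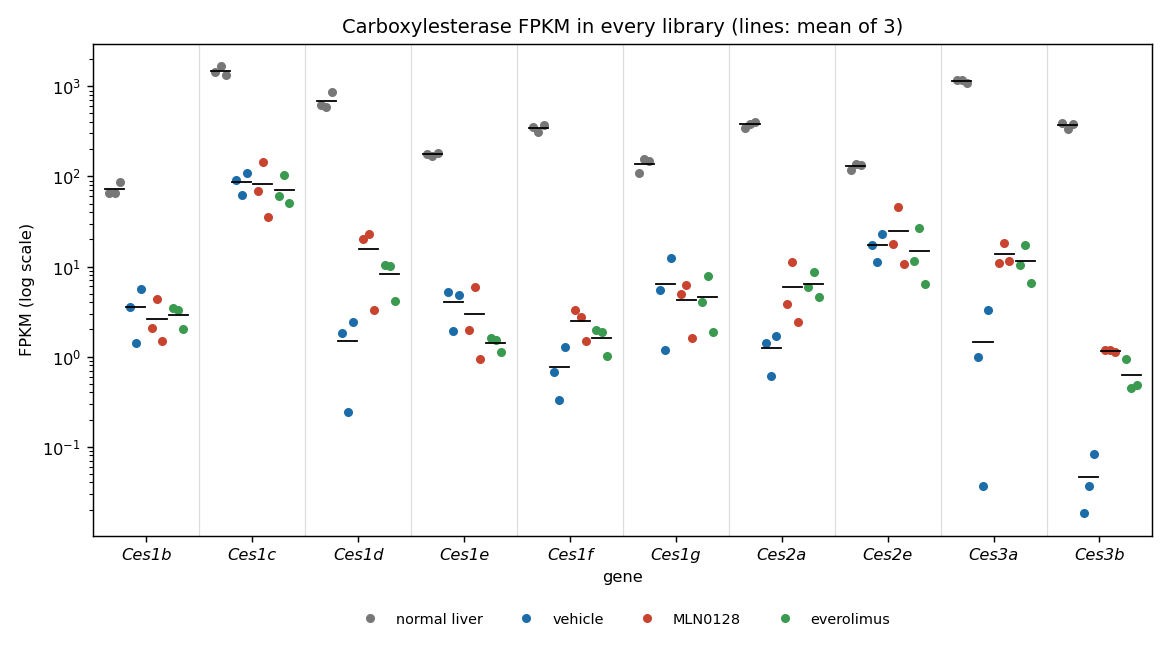
FPKM of the 10 carboxylesterase genes on a log axis, 1 point per library, with black lines at the mean of the 3 libraries of a group. The normal livers (gray) lie above all 9 tumors for each gene, and the 3 vehicle-treated tumors (blue) lie below the drug-treated ones for *Ces1d*, *Ces2a*, *Ces3a* and *Ces3b*.

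The other members fell by amounts that spread over a wide range. *Ces1d*, the triacylglycerol hydrolase named above, went from 629, 587 and 868 FPKM to 1.83, 0.240 and 2.43 in vehicle tumors, a ratio of 463. *Ces1f*, a relative with activity on triacylglycerol, went from 354, 314 and 371 to 0.668, 0.332 and 1.27 FPKM, a ratio of 458. *Ces2a*, from the family that prefers small acyl groups with large alcohols, went from 341, 386 and 406 to 1.42, 0.603 and 1.71 FPKM, a ratio of 304. These 3 and both *Ces3* genes were the 5 of 10 members whose normal mean exceeded the vehicle mean more than 100 times.

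The remaining 5 kept more of their RNA. *Ces1e* went from 177, 168 and 183 FPKM to 5.18, 1.93 and 4.86 (44.1 times lower), *Ces1g* from 110, 158 and 149 to 5.45, 1.19 and 12.3 (22.0 times) and *Ces1b* from 64.8, 66.1 and 87.5 to 3.54, 1.40 and 5.66 (20.6 times). *Ces1c* went from 1430, 1670 and 1350 FPKM to 90.6, 61.6 and 109, which is 17.0 times lower but still the highest carboxylesterase level in the tumors. *Ces2e* fell least, from 118, 139 and 135 to 17.3, 11.2 and 23.0 FPKM, 7.61 times. For *Ces2e* the vehicle mean was 13.1% of the normal mean, against 0.330% for its close relative *Ces2a*.

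Differences on log2(FPKM + 1) had to exceed 1.5-fold in limma's treat test, and p-values were adjusted by Benjamini-Hochberg over 14397 tested genes. All 9 members other than *Ces3a* were called lower in vehicle-treated tumors, where 16.9% of all tested genes were called lower. All 10 members lay below normal liver without overlap, as 35.1% of tested genes did. Over the 9 tested members log2 differences ran from -8.47 for *Ces3b* (SE 0.125, adjusted p = 4.52e-12) to -2.91 for *Ces2e* (SE 0.514, adjusted p = 0.00191). The median over the 10 members was -6.32, and the median over all tested genes was 0.06. The deposited FPKM carry a scaling that lifts normal liver relative to the plain totals of reads. With plain library totals the median of all genes shifted by 0.56, the genes called lower were 7.80% of those tested in place of 16.9%, and all 9 members were still called lower.

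Both drug groups also stayed far below normal liver. With everolimus all 10 members were called lower than in normal liver (18.4% of tested genes were), with log2 differences from -7.85 for *Ces3b* (SE 0.125, adjusted p = 1.15e-11, limma treat) to -3.26 for *Ces2e* (SE 0.514, adjusted p = 0.000675). *Ces3a*, tested here because neither group led to its choice, gave -6.62 (SE 0.442, adjusted p = 4.58e-07, limma treat). Its SE was pooled over all 4 groups, so the vehicle and MLN0128 tumors that led to the choice also entered it. With MLN0128 all 9 members other than *Ces3a* were called lower (20.2% of tested genes were), from -7.42 for *Ces3b* (SE 0.125, adjusted p = 2.25e-11) to -2.60 for *Ces2e* (SE 0.514, adjusted p = 0.00417). With plain library totals *Ces2e* was no longer called with MLN0128 (-1.54, adjusted p = 0.0840, limma treat), which left 8 of 9. The MLN0128 mean came to 1.19% of normal for *Ces3a* and the everolimus mean to 0.998%.

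Against vehicle, the tumors given MLN0128 had higher *Ces3a*, by which the genes were chosen: 10.9, 18.4 and 11.6 FPKM against 0.977, 0.0361 and 3.33. The means differed 9.42-fold, and the lowest MLN0128 tumor was above the highest vehicle tumor. *Ces3b* was at 1.19, 1.19 and 1.11 FPKM against 0.0182, 0.0370 and 0.0837, a 25.1-fold difference of the means that rests on 220 reads in the MLN0128 group and 8 in the vehicle group. *Ces1d* was at 20.3, 23.1 and 3.30 FPKM against 1.83, 0.240 and 2.43 (10.4-fold), and *Ces2a* at 3.87, 11.3 and 2.43 against 1.42, 0.603 and 1.71 (4.72-fold). *Ces1f* was at 3.26, 2.77 and 1.48 FPKM against 0.668, 0.332 and 1.27 (3.31-fold). These 5 of 10 members lay above vehicle without overlap, where 22.1% of all tested genes did. Single libraries set the size of several folds. Without vehicle replicate 3 they were 26.9 for *Ces3a*, 42.1 for *Ces3b* and 5.01 for *Ces1f*, and without MLN0128 replicate 2 the fold of *Ces2a* was 2.53.

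The other 5 overlapped between MLN0128 and vehicle. *Ces1b* was at 2.06, 4.40 and 1.47 FPKM in MLN0128 tumors, *Ces1c* at 68.9, 143 and 35.7, and *Ces1e* at 1.95, 5.96 and 0.936. *Ces1g* was at 4.97, 6.27 and 1.59 FPKM and *Ces2e* at 17.8, 45.5 and 10.7. In each of these 5 genes, and also in *Ces1d* and *Ces2a*, replicate 2 was the highest and replicate 3 the lowest MLN0128 tumor, and the hepatocyte marker sum had the same order (4356, 6593 and 3128 FPKM in replicates 1 to 3 as labelled). Replicate 3 is the MLN0128 tumor with Y-linked RNA and nearly no *Xist*, like the vehicle tumors. Without replicates 1 and 2 the log2 difference from vehicle was 0.91 in place of 2.51 for *Ces1d* and 0.53 in place of 0.99 for *Ces1f*. Replicate 3 alone was at 1.95 times the vehicle mean for *Ces2a*, in place of 4.72 for the whole group. For *Ces3a* it was at 8.01 times in place of 9.42, and for *Ces3b* at 24.0 in place of 25.1.

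Everolimus against vehicle shares its vehicle tumors with that contrast, and its values are set beside it. *Ces3a* was at 10.5, 17.4 and 6.54 FPKM in everolimus tumors, *Ces3b* at 0.949, 0.451 and 0.485, *Ces2a* at 5.97, 8.67 and 4.53 and *Ces1d* at 10.3, 10.2 and 4.18. These 4 of 10 members lay above vehicle without overlap (17.6% of tested genes did), with ratios of the means of 7.93, 13.6, 5.14 and 5.48. Without vehicle replicate 3 the ratio was 22.7 for *Ces3a* and 22.8 for *Ces3b*. *Ces1f* (1.98, 1.88 and 1.01 FPKM) overlapped with the vehicle tumors. *Ces1e*, at 1.62, 1.52 and 1.12 FPKM, was the 1 member below vehicle without overlap, with a mean 2.81 times lower. The share of all tested genes that lay below vehicle without overlap was not counted.

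By limma's treat test 0 of 9 members differed between everolimus and vehicle (0.604% of tested genes did). The moderated test of limma asks for any difference in place of one over 1.5-fold. By this test 2 of 9 members were called (9.83% of tested genes were, 3.78% as higher). Both called members rose: *Ces2a* by 1.72 on the log2 scale (SE 0.388, adjusted p = 0.0189) and *Ces3b* by 0.63 (SE 0.125, adjusted p = 0.0107). The log2 value of *Ces3b* is small because 1 FPKM was added to levels under 1. *Ces1d* (1.92, SE 0.598, adjusted p = 0.0628), *Ces1e* (-0.97, SE 0.392, adjusted p = 0.138) and *Ces1f* (0.59, SE 0.237, adjusted p = 0.136) did not pass this test. With single libraries left out, the adjusted p of the moderated test ran from 0.0102 to 0.0467 for *Ces3b*, which stayed called. For *Ces2a* it ran from 0.00208 to 0.0630, and its call was lost without vehicle replicate 1 (0.0541), vehicle replicate 2 (0.0568) or everolimus replicate 1 (0.0630). The coding sequence of *Ces3b* was 95.3% identical to that of *Ces3a*, and Pearson's r of the pair over the 9 tumor libraries was 0.84. *Ces3a* was chosen from the vehicle and MLN0128 tumors, so tests of *Ces3b* that use those tumors are not independent of the choice.

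**Figure D2:**
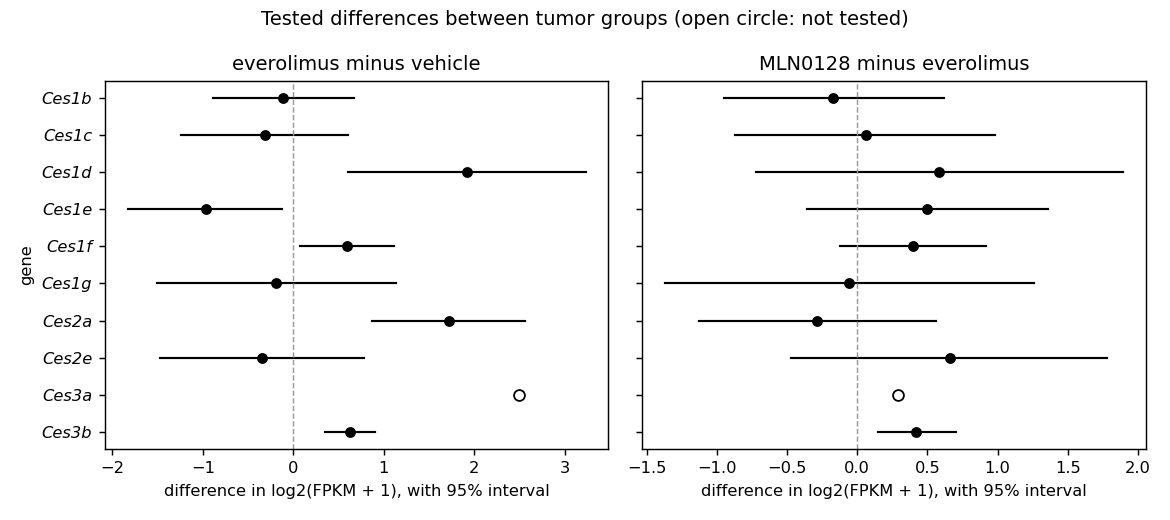
Difference of each gene in log2(FPKM + 1) between everolimus and vehicle (left) and between MLN0128 and everolimus (right), as points with 95% intervals from limma's moderated fit. *Ces3a* is an open circle without an interval because it was not tested. On the left *Ces2a* (1.72) and *Ces3b* (0.63) were called by the moderated test, and on the right no gene was.

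The 2 drugs were given at the same dose and over the same time, so their tumors can be set against each other directly. None of 9 members differed between MLN0128 and everolimus by limma's treat test (0.0417% of tested genes did) or by its moderated test (9.53% did). *Ces3b* came closest, with 1.19, 1.19 and 1.11 FPKM against 0.949, 0.451 and 0.485 and no overlap. Its log2 difference was 0.42 (SE 0.125, 95% interval 0.15 to 0.70, adjusted p = 0.0555, limma moderated test). The intervals of the other members were wide. That of *Ces1d* ran from -0.72 to 1.89 and that of *Ces2a* from -1.13 to 0.56, so changes of more than 1.5-fold in either direction lie within the interval of *Ces1d*, and the missing calls do not show that the drugs acted alike. *Ces3a* was at 10.9, 18.4 and 11.6 FPKM in MLN0128 tumors and 10.5, 17.4 and 6.54 in everolimus tumors, overlapping, with a ratio of the means of 1.19. Since 2 of the 3 MLN0128 libraries differ from all everolimus libraries in X and Y content, the drug and that content cannot be told apart in the differences that rest on them.

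The makeup of the carboxylesterase RNA differed between the groups as well as its amount. The 10 members summed to 4790 to 5034 FPKM in normal liver, 78.6 to 164 in vehicle tumors, 70.3 to 262 in MLN0128 tumors and 78.3 to 182 in everolimus tumors. *Ces3a* made up 21.9% to 24.4% of the sum in normal liver, 0.0460% to 2.04% in vehicle tumors, 7.03% to 16.5% in MLN0128 tumors and 8.35% to 9.54% in everolimus tumors. *Ces1c* took 26.8% to 33.4% in normal liver and 66.6% to 78.4% in vehicle tumors, against 50.8% to 54.6% in MLN0128 tumors and 54.4% to 64.1% in everolimus tumors. *Ces2e* took 2.46% to 2.78% in normal liver and 13.6% to 14.3% in vehicle tumors, against 13.2% to 17.4% in MLN0128 tumors and 8.11% to 14.9% in everolimus tumors. The drug-treated tumors thus lay between normal liver and vehicle in the share of both *Ces3a* and *Ces1c*. In the share of *Ces2e* both drug groups overlapped vehicle. The summed level overlapped between the 3 tumor groups.

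**Figure D3:**
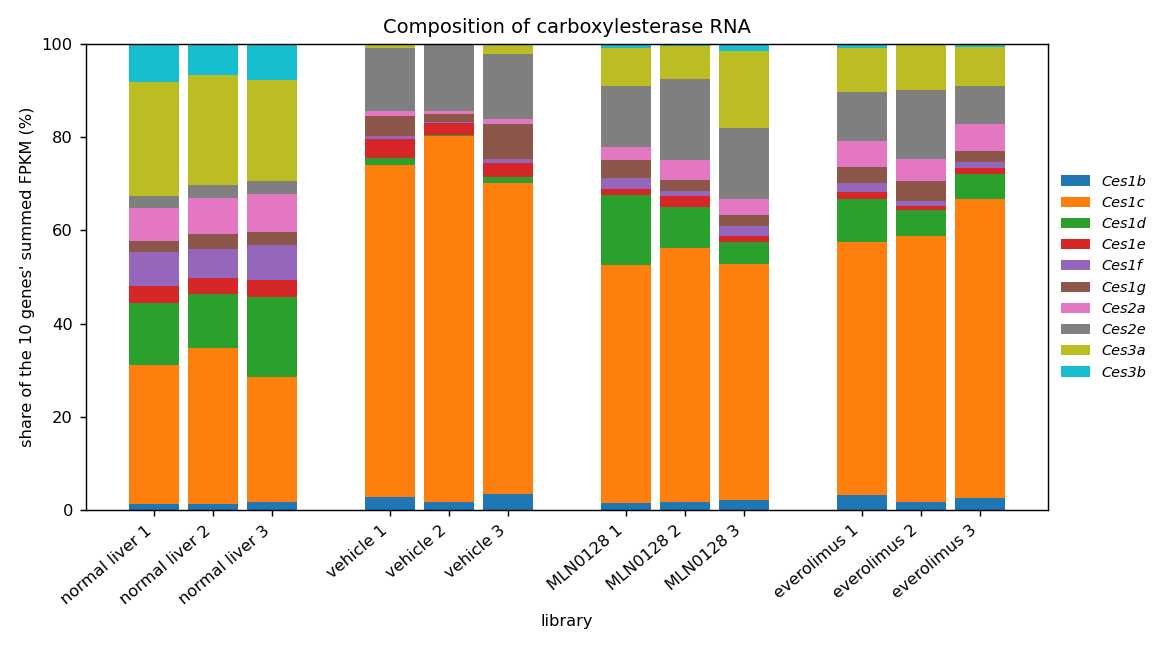
Share of each gene in the summed FPKM of the 10 carboxylesterases, as a stacked bar in percent for every library. *Ces1c* takes 66.6% to 78.4% of the vehicle bars, and *Ces3a*, 21.9% to 24.4% in normal liver, is at most 2.04% in vehicle tumors.

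The close pairs behaved differently from each other, as FPKM ratios within a library show, which no scaling between libraries can change. *Ces1b* stood at 3.96% to 6.48% of *Ces1c* in normal liver, 2.27% to 5.19% in vehicle tumors, 2.99% to 4.12% in MLN0128 tumors and 3.17% to 5.80% in everolimus tumors. These 4 ranges overlapped each other. Of the stretches of 50 bases, 11.6% in *Ces1b* and 17.0% in *Ces1c* also occurred in another gene, each sharing most with the other. The part that reads counted for the wrong gene of this pair had in the ratio was not tested. *Ces2a* stood at 278% to 301% of *Ces2e* in normal liver, 5.38% to 8.21% in vehicle tumors, 21.7% to 24.8% in MLN0128 tumors and 32.0% to 71.3% in everolimus tumors, and no 2 of these ranges overlapped. *Ces3b* stood at 28.3% to 35% of *Ces3a* in normal liver, 6.47% to 10.9% in MLN0128 tumors and 2.59% to 9.04% in everolimus tumors. With vehicle it was at 1.86%, 102% and 2.51%, the middle value being a ratio of 2 reads to 2. An exact permutation test of 3 against 3 libraries cannot go below p = 0.1, so these ratios are given as a description.

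**Figure D4:**
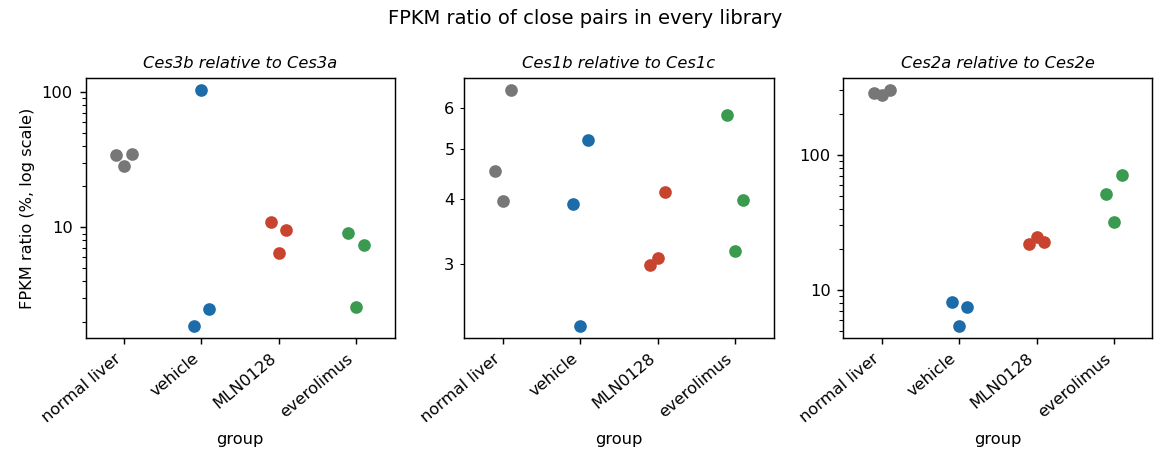
FPKM of *Ces3b* relative to *Ces3a*, *Ces1b* relative to *Ces1c* and *Ces2a* relative to *Ces2e*, in percent on log axes that differ between panels, 1 point per library. *Ces1b* keeps 2.27% to 6.48% of *Ces1c* in all 12 libraries, whereas *Ces2a* relative to *Ces2e* separates all 4 groups.

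Over the 9 tumor libraries, which share the 3 treatments and the authors' scaling, some members followed each other closely in log2(FPKM + 1). Pearson's r was 0.96 for *Ces1d* and *Ces1f*, 0.90 for *Ces1b* and *Ces1g*, and 0.89 for *Ces1c* and *Ces2e* as well as for *Ces2a* and *Ces3a*. It was lowest for *Ces1e* and *Ces3b*, at -0.30. With the log2 hepatocyte marker sum, r was 0.82 for *Ces1c*, 0.68 for *Ces1g*, 0.65 for *Ces1b*, 0.61 for *Ces2e* and 0.57 for *Ces1e*. It was 0.12 for *Ces2a*, -0.04 for *Ces1d*, -0.14 for *Ces1f*, -0.16 for *Ces3a* and -0.58 for *Ces3b*. These values pool 3 treatments, so they also hold the differences between the groups.

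Of 10 other carboxylesterase symbols searched, 5 were listed and 4 were high enough to test. *Ces2c*, a hepatic lipase for di- and triacylglycerol in the same block as *Ces2a* and *Ces2e*, went the other way with the drugs. It had 46.2, 29.1 and 56.2 FPKM in normal liver, 6.74, 3.63 and 7.47 in vehicle tumors, 0.643, 0.919 and 0.873 in MLN0128 tumors and 0.346, 1.38 and 0.472 in everolimus tumors. It fell by 2.69 on the log2 scale from normal liver to vehicle (SE 0.288, adjusted p = 5.61e-05, limma treat) and by 2.0 from vehicle to everolimus (SE 0.288, adjusted p = 0.0350, limma treat). *Ces2g* was at 11.3, 23.8 and 7.57 FPKM in MLN0128 tumors and 2.58, 5.65 and 2.30 in everolimus tumors, a log2 difference of 1.69 (SE 0.469, adjusted p = 0.0455, limma moderated test), with no overlap. This test called 9.53% of all tested genes there, and treat did not call *Ces2g*. Vehicle tumors, at 6.80, 2.57 and 11.7 FPKM, overlapped both drug groups. Against vehicle the moderated test gave adjusted p = 0.139 for MLN0128 and 0.355 for everolimus. Normal liver had 17.9, 26.5 and 19.1 FPKM. *Ces4a* was at a mean of 5.48 FPKM in normal liver, at 0 in all 3 MLN0128 tumors and at most 0.0330 FPKM in the other tumors, *Ces2b* was at most 1.12 FPKM and *Ces1a* at most 0.444 in any library.

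The 5 genes outside the family whose tumor levels were most like those of *Ces3a*, by Pearson's r of log2(FPKM + 1) over the same 9 libraries among 6768 genes with a mean of at least 5 FPKM there, were *Serpina3k* (0.966), *Cyp2e1* (0.957), *Pon1* (0.952), *Ctu1* (0.945) and *Mup3* (0.942). These 9 libraries include the vehicle and MLN0128 tumors by which *Ces3a* was chosen. A rise from vehicle to MLN0128 in the 5 genes thus follows from the ranking. *Serpina3k* encodes a secreted serine protease inhibitor, *Cyp2e1* a cytochrome P450 of ethanol and xenobiotic oxidation, *Pon1* a secreted paraoxonase and *Mup3* a major urinary protein. *Cyp2e1* was at 10.2, 1.56 and 28.6 FPKM in vehicle tumors, 87.4, 74.6 and 44.3 in MLN0128 tumors and 75.3, 118 and 51.5 in everolimus tumors. *Pon1* was at 1.38, 0.557 and 2.06 FPKM in vehicle tumors, 9.06, 16.5 and 4.60 in MLN0128 tumors and 8.77, 12.6 and 4.31 in everolimus tumors. *Cyp2e1*, *Pon1*, *Serpina3k* and *Mup3* averaged 557 to 17900 FPKM in normal liver, while *Ctu1*, a tRNA modification enzyme, was at 3.09 FPKM there and at 4.08 in vehicle tumors.

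Genes of related function were counted from fixed lists. Of 21 other ester and lipid hydrolases of liver, 14 were called lower and 0 higher in vehicle-treated tumors than in normal liver by limma's treat test, against 16.9% of all tested genes called lower (median log2 difference -1.97). *Aadac*, the arylacetamide deacetylase of the endoplasmic reticulum, fell from 586 to 29.2 FPKM, *Pon1* from 557 to 1.33 and the hepatic lipase gene *Lipc* from 172 to 13.1. *Pnpla2*, the triacylglycerol lipase of lipid droplets, had 31.4 FPKM in normal liver and 31.8 in vehicle tumors and was not called. Between everolimus and vehicle 0 of 21 were called by treat and 2 by the moderated test, a share near the 9.83% of all tested genes. They were *Pon1* higher (1.99, adjusted p = 0.0126) and *Pon2* lower (-0.65, adjusted p = 0.0241). Between MLN0128 and everolimus *Pon2* alone was called by limma's moderated test, as lower (2.20 against 4.08 FPKM, adjusted p = 0.0226), where 9.53% of all tested genes were called, and 0 of 21 by treat.

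Of 14 nuclear receptors and transcription factors of liver, 12 were called lower and 0 higher in vehicle-treated tumors, against 16.9% of all tested genes called lower (median log2 difference -2.06). *Nr1i3*, the xenobiotic receptor CAR, fell from 10.4 to 0.933 FPKM, *Cebpa* from 383 to 46.7 and *Onecut1* from 11.9 to 1.25. *Hnf4a*, a master regulator of hepatocyte genes, fell from 218 to 104 FPKM (log2 difference -1.07, adjusted p = 0.0120, limma treat). *Nfe2l2* (14.3 and 17.2 FPKM) and *Foxa2* (19.0 and 8.73) were not called. None of the 14 was called between everolimus and vehicle by treat, and 1 was by the moderated test, a share no higher than the 9.83% of all tested genes. For that gene, *Nr0b2*, the corepressor SHP, the mean went from 2.66 to 12.4 FPKM (1.95, adjusted p = 0.0241). It was at 1.98 FPKM in MLN0128 tumors, lower than in everolimus tumors (-2.2, adjusted p = 0.0177, limma moderated test).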

How the data were processed

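The authors had RNA of 12 mice, 3 per group, made into libraries and sequenced by Novogene, and counted reads per Ensembl gene. They deposited FPKM, rounded to 3 significant digits, and the authors themselves tested counts for a fold change with edgeR's glmTreat. The submitters' processing notes name FastQC 0.11.7 and the build GRCm38. The aligner, the treatment of reads that fit several genes and the gene lengths are not given in the sources used here. The labels give 3 weeks of treatment where the paper's results give 3 days. The labels were followed.

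The members and the gene lists were chosen with earlier results of these data known. A gene was tested if 3 or more libraries reached 0.5 FPKM, which held for 14397 of 17007, including all 10 members. Values were taken as log2(FPKM + 1), and all 12 libraries entered 1 fit with an intensity trend (limma 3.58.1, R 4.3.3). A gene was called when treat put its change beyond 1.5-fold at an adjusted p under 0.05 (Benjamini-Hochberg), with the moderated test given beside it. Named genes were all members, the other listed carboxylesterases, called or abundant genes of the fixed lists and the 5 genes most like *Ces3a*. A fold change on the log2(FPKM + 1) scale understates changes of genes near or under 1 FPKM, so ratios of mean FPKM are given too. Groups were called apart where every library of one lay above every library of the other. The model was tested on simulated data before use. P-values set a difference of groups against the spread between mice of the same group, pooled over the 4 groups and moderated across genes.

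FPKM times the exon length of GENCODE M21 (16871 genes) fell within 0.1 of a whole read, after a scaling per library, for 98.2% to 98.8% of values under 20 reads, where chance gives 20.0%, and these reads served for depth, counting intervals and the voom alternative. In the deposited values 22 symbols had been turned into dates and were left out of gene lists. Promoters came from RefSeq (GRCm38.p6), and coding sequences from GENCODE M21, the longest per gene, aligned with Biopython 1.88. Protein sequences were not analysed here. 1 gene of the transcription factor list and 1 motif are not reported here.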

Additional observations from a re-analysis of the deposited data

How the results depend on the processing

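All 9 members called lower in vehicle tumors than in normal liver, and all 10 in everolimus tumors, were called lower under every alternative tried: a pseudocount of 0.1 FPKM, no filter, the moderated test, a common median of the libraries, plain library totals, voom on recovered reads, only the 2 groups compared, a constant prior variance, the replicate block, and libraries left out in turn (9 to 9 and 10 to 10). MLN0128 against normal liver gave 9 under all of these except plain library totals (8, without *Ces2e*). For everolimus against vehicle the treat count of 0 became 1 with a pseudocount of 0.1 (*Ces3b*, log2 difference 2.28, adjusted p = 0.00349), 1 with voom (*Ces3b*, 3.54, adjusted p = 0.0133) and 2 with the moderated test of limma, and stayed at 0 to 0 with libraries left out. MLN0128 against everolimus stayed at 0 throughout.

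Same-numbered libraries did not deviate together: over 18 pairs the correlation of their deviations ran from -0.29 to 0.15 with a median of -0.06, so the numbers do not pair mice. With the replicate block 9, 0, 0, 9 and 10 members were called in the 5 comparisons in the order vehicle against normal liver, everolimus against vehicle, MLN0128 against everolimus, MLN0128 against normal liver and everolimus against normal liver.

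Over all genes, calls between everolimus and vehicle numbered 87, against 148 with a pseudocount of 0.1, 169 with voom, 38 with only these 2 groups, 1415 with the moderated test, and 47, 45 and 54 without vehicle replicate 1, vehicle replicate 3 and everolimus replicate 1. Calls between MLN0128 and everolimus numbered 6, against 15 with voom, 3 with only these 2 groups, 1372 with the moderated test and 2 to 18 with libraries left out. Plain library totals turned the split against normal liver from 2282 higher and 2428 lower in vehicle tumors to 5204 and 1123, from 2457 and 2902 to 5901 and 1158 in MLN0128 tumors, and from 2433 and 2646 to 5196 and 1156 in everolimus tumors. The moderated test called 9929, 10449 and 10110 genes there in place of 4710, 5359 and 5079. Of the single log2 differences of members, 1301 kept their side of the threshold or moved by less than 1 SD, 14 without a test moved by more, 4 became called and 1 (*Ces2e*, above) was lost, and none of the called ones reversed. The differences of *Ces3a* and *Ces3b* from vehicle are the least certain in size, since they rest on 261 and 8 reads in the vehicle group. With voom the difference between MLN0128 and vehicle was 4.59 for each, against 2.79 and 1.05 on the log2(FPKM + 1) scale.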

Other observations

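Genes that work beside carboxylesterases in storing fat in droplets and loading it onto VLDL had mostly lower RNA in the tumors too. Of 14 such genes, 8 were called lower and 0 higher in vehicle tumors than in normal liver by limma's treat test, against 16.9% of all tested genes called lower (median log2 difference -1.71). *Apoc3*, a small apolipoprotein of VLDL, went from 3073 to 102 FPKM, *Apob*, its core protein, from 576 to 124, and *Cideb*, which aids VLDL lipidation, from 34.9 to 4.10. *Mttp*, the transfer protein that loads apolipoprotein B with lipid, was at 66.1 FPKM in normal liver and 35.8 in vehicle tumors and was not called (-0.86, adjusted p = 0.143, limma treat). *Cidec*, a droplet fusion protein, had 3.43 FPKM in normal liver, 9.62 in vehicle tumors, 2.74 in MLN0128 tumors and 3.08 in everolimus tumors. Between everolimus and vehicle it was the 1 gene of the 14 called by limma's moderated test, as lower (-1.63, adjusted p = 0.0254), where 9.83% of all tested genes were called, and 0 of 14 were called by treat. Between MLN0128 and everolimus *Dgat1*, an enzyme of triacylglycerol synthesis, was the 1 gene called by limma's moderated test, at 3.71 against 5.53 FPKM (adjusted p = 0.0285), where 9.53% of all tested genes were called.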
